A study of Homo sapiens with 60 samples.

Results

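The 8 genes described here, AFP, GPC3, IGF2, H19, DLK1, IGF2BP1, IGF2BP3 and LIN28B, are active in fetal liver and often active in hepatocellular carcinoma; most of them are low or silent in adult hepatocytes, whereas IGF2 stays expressed in human adult liver. They were chosen by name as oncofetal liver genes and matched to 8 of the 60675 Ensembl gene IDs of the count table. All 8 passed the filter on low counts and were among the 16982 genes tested. Their RNA was measured by RNA sequencing in HepG2, an established human liver tumour cell line that secretes AFP. Cells were taken 24 h after addition of an extract made with 70% ethanol. The herbs were Polygalae Radix (10, 50 and 250 µg/mL as low, medium and high dose; 2 libraries a dose), Aucklandiae Radix (11.2, 56 and 280 µg/mL; 2 libraries a dose), and Menthae Herba and Saposhnikoviae Radix (20, 100 and 500 µg/mL; 3 libraries a dose). The decoctions, which combine several herbs, were Guibi-tang and Saengmaek-san (3 libraries a dose), Soyo-san (2 libraries a dose) and Okbyeongpung-san (1 library a dose), all at 20, 100 and 500 µg/mL. The reference without extract was vehicle (3 libraries), given as 0.1% DMSO in the labels, whereas the series' design text names another DMSO concentration. All 60 libraries come from HepG2 with no genetic change named in the labels, so the values describe a single tumour line. Nothing in the labels tells whether replicate libraries came from separate cultures. The p-values therefore rest on the spread among these libraries, part of which may be technical.

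In the fetal liver these genes belong to a growth programme that is largely shut down after birth. AFP is the main plasma protein of the fetus and the serum marker of liver cancer, GPC3 is a heparan sulfate proteoglycan held on the cell surface that binds growth factors and Wnts, and IGF2 is the fetal growth factor that signals through the insulin and IGF1 receptors. IGF2 and the noncoding RNA H19 are imprinted neighbours expressed from opposite parental chromosomes, DLK1 is an imprinted surface protein of fetal liver progenitors, IGF2BP1 and IGF2BP3 are RNA-binding proteins that bind IGF2 and other mRNAs, and LIN28B blocks the maturation of let-7 microRNAs.

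Libraries held 17.5 M to 38.9 M counts (M for mega; median 23.7 M). Mitochondrially encoded genes held 8.02% to 19.1% of counts, highest in a vehicle library and lowest at the high dose of Aucklandiae Radix. All 9 hepatocyte markers were detected in every library, with a summed level of 16600 to 49500 CPM, that is counts per M counts of the library. Markers of other cell types summed to 561 to 1660 CPM for blood, nearly all of it LYZ, 4.91 to 16.9 CPM for stroma, 2.09 to 6.35 CPM for endothelium and 73.5 to 356 CPM for lung and gut, nearly all of it VIL1. The blood marker HBB and the stroma marker DCN had 0 counts in every library, and PTPRC, CD3E, SFTPC, SFTPA1 and COL1A2 stayed at or below 0.0581 CPM. The trend of log2 level with GC content of the gene ranged over libraries from a slope of -0.14 to 0.235 per 10 percentage points, with the vehicle libraries at 0.1, 0.233 and 0.235. All titles name the same batch, BatchD. The first part of the sample code is called the set label here. High, medium and low doses of an extract share it, whereas vehicle codes begin differently. Thus differences from vehicle and differences between sets cannot be told apart. The dose comparisons below therefore set the high or medium dose against the low dose of the same extract.

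AFP, GPC3 and IGF2 were among the most abundant RNAs of these cells. Per kb of exon, which allows levels of different genes to be compared, AFP averaged 965 CPM per kb over all 60 libraries, GPC3 560.3 and IGF2 341. IGF2BP1 followed at 68.9 CPM per kb, DLK1 at 38.9, LIN28B at 25.2 and IGF2BP3 at 10.6, while H19 was near the limit of detection at 0.202 CPM per kb, with 5 to 30 counts in a library. By mean CPM, not corrected for length, AFP ranked 21 and IGF2 ranked 25 among all gene IDs.

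**Figure D1:**
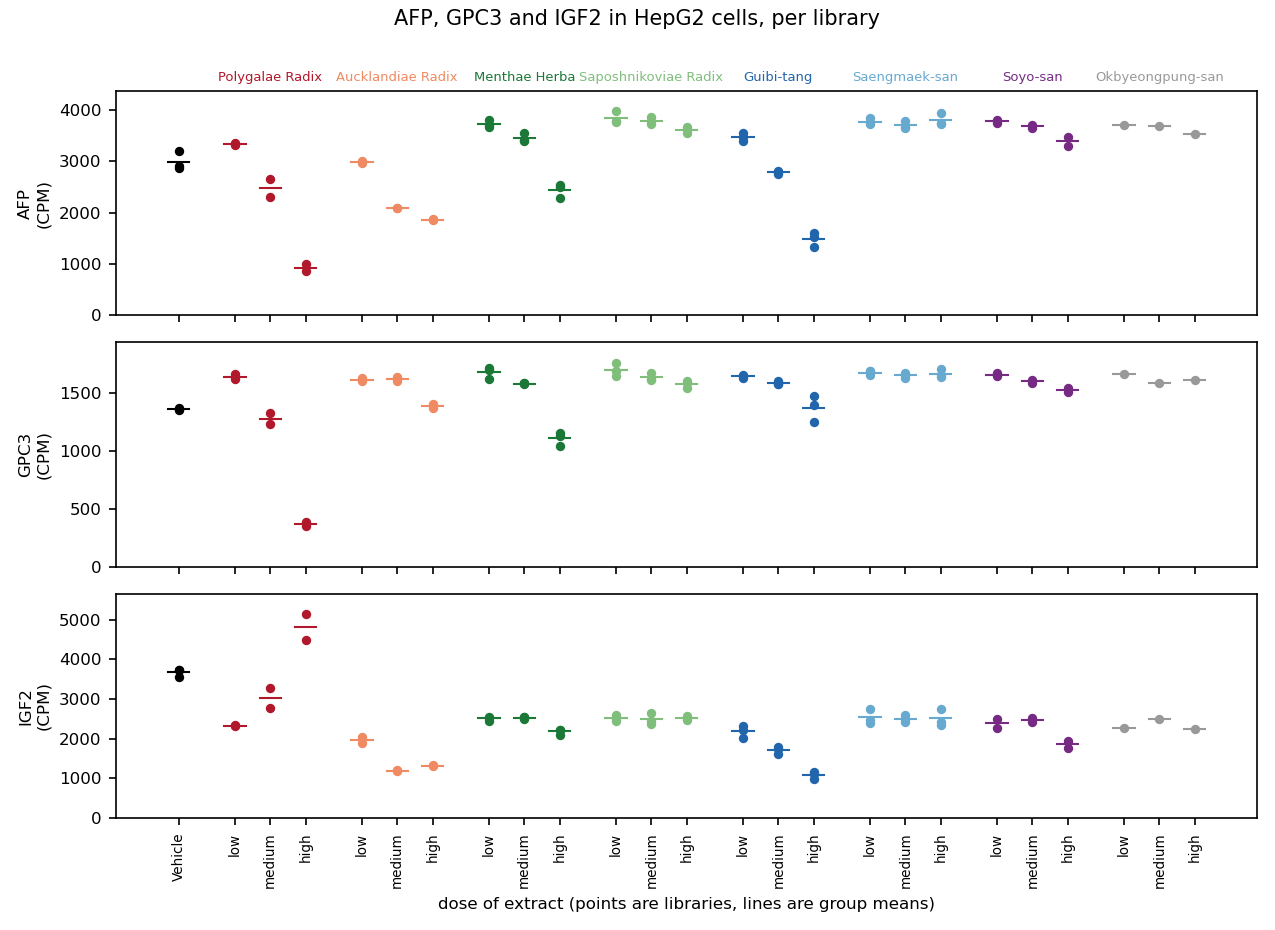
Levels of AFP, GPC3 and IGF2 in CPM (linear axes from 0) in each of the 60 libraries, with vehicle on the left and the low, medium and high dose of each extract following; points are libraries and short lines are group means. AFP and GPC3 are lowest at the high dose of Polygalae Radix, where IGF2 is highest, and IGF2 in every low-dose library lies below the vehicle libraries.

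Between high and low dose, 4 extracts changed most of the 8 genes, Soyo-san changed 2 of them, and Saposhnikoviae Radix and Saengmaek-san changed none (edgeR quasi-likelihood test, Benjamini-Hochberg adjusted p below 0.05). For Polygalae Radix 7 of 8 passed the test, 2 higher and 5 lower at the high dose, in a comparison where 64.1% of all genes tested passed. For Aucklandiae Radix 6 of 8 passed, against 69.4% of all genes, so the count in either direction is near the background. All 6 were lower, against 35.5% of all genes in that direction. For Menthae Herba 5 of 8 passed, all lower, against 23.3% of all genes and 12.5% in that direction. For Guibi-tang 5 of 8 passed, 1 higher and 4 lower, against 34.3% of all genes. For Soyo-san 2 of 8 passed, both lower, against 3.95% of all genes. None passed for Saposhnikoviae Radix, where 0.83% of all genes did, or for Saengmaek-san, where 0.436% did; at an unadjusted p below 0.05 these were 2 and 0 of the 8 genes, and DESeq2 called 0 of them in either extract. The median log2 fold change of the 8 genes was -0.45 for Polygalae Radix, -0.58 for Aucklandiae Radix, -0.19 for Menthae Herba, -0.19 for Guibi-tang and -0.1 for Soyo-san, with medians of all genes tested between -0.02 and 0.

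**Figure D2:**
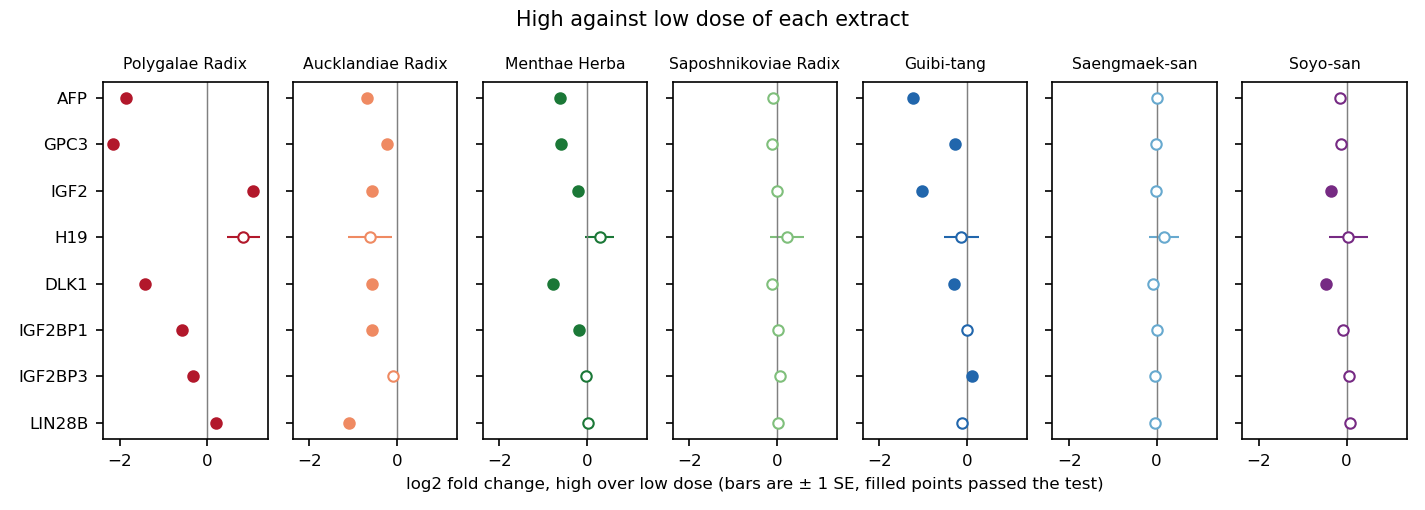
Log2 fold change of each gene, high over low dose, for 7 extracts; bars are 1 SE of the fit, which is narrower than the point except for H19, and filled points passed the test. AFP runs from -1.85 to 0.01 over the extracts, and IGF2 has called changes of both signs, 1.04 with Polygalae Radix and -1.03 with Guibi-tang.

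AFP (ENSG00000081051, GRCh38 chromosome 4, 73431138 to 73456174, plus strand) fell at the high dose of 4 extracts. With Polygalae Radix it had 861 and 999 CPM at the high dose, against 3327 and 3362 CPM at the low dose. This was the lowest AFP level of the 25 groups and lay apart from every other group. The log2 fold change was -1.85 (SE 0.06, adjusted p = 4.99e-29), a level 3.62-fold lower, and 3.46% of all genes tested had a lower fold change. With Guibi-tang AFP had 1519, 1331 and 1597 CPM at the high dose, against 3559, 3482 and 3403 CPM at the low dose. The groups did not overlap, and the log2 fold change of -1.23 (SE 0.05, adjusted p = 8.73e-25) left 1.47% of all genes lower. With Aucklandiae Radix it had 1867 and 1847 CPM at the high dose, against 2965 and 3008 CPM at the low dose (log2 fold change -0.69, SE 0.06, adjusted p = 4.19e-14), and 22.9% of all genes had a lower fold change. With Menthae Herba it had 2499.6, 2538 and 2289 CPM at the high dose, against 3668, 3701 and 3798 CPM at the low dose (log2 fold change -0.61, SE 0.05, adjusted p = 4.69e-14). With both herbs all high-dose libraries lay below all low-dose libraries.

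Part of the AFP change was present at the medium dose. With Aucklandiae Radix the medium dose had 2095 and 2094 CPM, a log2 fold change of -0.51 from the low dose (SE 0.06, adjusted p = 3.43e-08). With Polygalae Radix the medium dose had 2298 and 2657 CPM (log2 fold change -0.44, SE 0.06, adjusted p = 1.1e-06), and with Guibi-tang 2790.5, 2806 and 2757 CPM (log2 fold change -0.32, SE 0.05, adjusted p = 1.31e-05). By group mean AFP was thus lower at each step up in dose of these extracts. Of all 8 genes, 3 passed between medium and low dose of Polygalae Radix, where 8.41% of all genes did, 2 with Aucklandiae Radix (4.35% of all genes) and 2 with Guibi-tang (3.6% of all genes). The call with Polygalae Radix was lost in a fit of the 2 groups alone, in which 20 genes in all passed and none of the 8. None of the 8 passed with Menthae Herba (0.118% of all genes), Saposhnikoviae Radix (0.0118%), Saengmaek-san (0%) or Soyo-san (0.00589%), and DESeq2 called none of them there; 3, 1, 1 and 0 of the 8 had an unadjusted p below 0.05 in these extracts, in the order named. For Saengmaek-san, where no gene passed in edgeR, 772 genes had an unadjusted p below 0.05 and DESeq2 called 2.

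With the other extracts the AFP change did not pass. Soyo-san gave 3304 and 3472 CPM at the high dose, against 3755 and 3808 CPM at the low dose, a log2 fold change of -0.16 that did not pass (SE 0.06, adjusted p = 0.144), although the 2 groups did not overlap. It passed with the GC trend removed (-0.17, adjusted p = 0.0267) and in a fit of the 2 groups alone (-0.16, adjusted p = 0.029). Saposhnikoviae Radix gave 3552, 3633 and 3665 CPM, against 3783, 3768 and 3978 CPM (log2 fold change -0.08, SE 0.05, adjusted p = 0.57). Saengmaek-san gave 3731, 3751 and 3950.3 CPM, against 3841, 3723 and 3761 CPM (log2 fold change 0.01, SE 0.05, adjusted p = 0.984). Okbyeongpung-san, with no replicates and left out of the fit, had 3530.1 CPM at the high dose and 3710.2 CPM at the low dose, a log2 difference of -0.07 with a 95% counting interval of -0.09 to -0.06 that covers counting error only. In order of group means, the 10 highest AFP groups, from 3843 to 3679.5 CPM, each overlapped their neighbours among these 10 in their libraries, whereas each of the 4 lowest groups lay apart from its neighbours.

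The AFP promoter is shown because AFP fell at the high dose of 4 extracts. The 250 bases before the RefSeq start (GRCh38.p14, chr4:73435971-73436220, plus strand, inside the longer GENCODE gene interval given above) are shown 5′ to 3′ with the TATA box (TATAAA), where the transcription machinery assembles, in capitals.
AFP promoter: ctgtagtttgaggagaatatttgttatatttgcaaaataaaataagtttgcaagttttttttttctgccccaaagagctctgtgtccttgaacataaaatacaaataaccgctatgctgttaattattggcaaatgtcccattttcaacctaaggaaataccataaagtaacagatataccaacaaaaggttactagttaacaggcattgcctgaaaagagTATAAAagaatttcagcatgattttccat
The TATA box begins 29 bases before the start. Among 35116 promoters of this length, searched on both strands, 10.72% hold TATAAA. A match describes the letters and is not evidence of binding.

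GPC3 (ENSG00000147257, chromosome X, 133535745 to 133985895, minus strand) showed the largest fall of the 8 genes, with Polygalae Radix. It had 351 and 390.5 CPM at the high dose, against 1665 and 1622 CPM at the low dose. The high-dose level lay below that of every other group, with a log2 fold change of -2.16 (SE 0.05, adjusted p = 1.04e-34), a level 4.46-fold lower; 2.1% of all genes had a lower fold change. At the medium dose GPC3 had 1230.2 and 1331 CPM (log2 fold change from the low dose -0.36, SE 0.05, adjusted p = 6.21e-07). In a fit of the 2 groups alone this medium-dose change did not pass (-0.36, adjusted p = 0.13). Menthae Herba gave 1157, 1133 and 1044 CPM at the high dose, against 1623, 1701 and 1722 CPM at the low dose (log2 fold change -0.6, SE 0.04, adjusted p = 9.41e-17). This was the next lowest group after Polygalae Radix, and again no library of one dose reached the other.

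Smaller changes of GPC3 were found with Guibi-tang and Aucklandiae Radix. Guibi-tang gave 1399, 1251 and 1475 CPM at the high dose, against 1656, 1631 and 1649 CPM at the low dose (log2 fold change -0.26, SE 0.04, adjusted p = 5.8e-07). Aucklandiae Radix gave 1409 and 1371 CPM at the high dose, against 1629 and 1606 CPM at the low dose (log2 fold change -0.22, SE 0.05, adjusted p = 7.5e-05). A lower fold change was found for 19.8% of all genes with Guibi-tang and for 40.6% with Aucklandiae Radix. In both extracts every high-dose library lay below every low-dose library. The high-dose means, 1375 CPM with Guibi-tang and 1389.8 CPM with Aucklandiae Radix, were near the vehicle mean of 1363 CPM. The order of the extracts by fold change thus differed between AFP and GPC3: with Guibi-tang AFP was 2.35-fold and GPC3 1.2-fold lower, whereas with Menthae Herba AFP was 1.53-fold and GPC3 1.52-fold lower. GPC3 did not pass with Soyo-san (log2 fold change -0.12, adjusted p = 0.18), Saposhnikoviae Radix (-0.1, adjusted p = 0.296) or Saengmaek-san (-0.01, adjusted p = 0.989).

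IGF2 (ENSG00000167244, chromosome 11, 2129112 to 2149603, minus strand) rose with Polygalae Radix and fell with 4 other extracts. It had 5138 and 4476 CPM at the high dose of Polygalae Radix, against 2346 and 2317 CPM at the low dose, a log2 fold change of 1.04 (SE 0.08, adjusted p = 3.23e-16). Both high-dose libraries exceeded all 58 others, vehicle included. The medium dose lay between, at 3276 and 2780.1 CPM (log2 fold change from the low dose 0.37, SE 0.08, adjusted p = 0.00087, and 0.25 without medium-dose replicate 2). In a fit of the 2 groups alone this medium-dose change did not pass (0.38, adjusted p = 0.157). The high-dose libraries of Polygalae Radix differed in their GC slope, 0.124 and -0.1, and the low-dose libraries had -0.012 and -0.003; IGF2 is 59.1% GC over its exons. With the GC trend removed the log2 fold change of IGF2 at the high dose was 1.13.

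With Guibi-tang IGF2 had 975, 1156 and 1104 CPM at the high dose, against 2334, 2029.9 and 2232 CPM at the low dose. These were the lowest IGF2 values of the study by group mean, with a log2 fold change of -1.03 (SE 0.06, adjusted p = 3.73e-18), and 2.21% of all genes were lower. The medium dose of Guibi-tang had 1617, 1755 and 1796 CPM (log2 fold change from the low dose -0.35, SE 0.06, adjusted p = 0.000197). Aucklandiae Radix gave 1330.3 and 1314 CPM at the high dose, against 1895 and 2033 CPM at the low dose (log2 fold change -0.58, SE 0.08, adjusted p = 6.34e-09). With this extract 26.5% of all genes had a lower fold change. Its medium dose, at 1182 and 1211 CPM, was below its high dose in both libraries (log2 fold change from the low dose -0.72, SE 0.08, adjusted p = 3.65e-09), so IGF2 did not follow the dose there. Soyo-san gave 1954 and 1768 CPM, against 2506 and 2269.7 CPM (log2 fold change -0.36, SE 0.08, adjusted p = 0.00137). Menthae Herba gave 2232, 2089 and 2232 CPM, against 2535, 2447 and 2551 CPM (log2 fold change -0.21, SE 0.06, adjusted p = 0.0112). Neither of these smaller changes held with every library left out in turn: the value for Soyo-san was -0.29, not passing, when either low-dose replicate 1 or high-dose replicate 2 was left out, and that for Menthae Herba was -0.17 without high-dose replicate 2 and -0.19 without low-dose replicate 3.

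The 3′ end of IGF2 is shared with ENSG00000240801, a noncoding RNA annotated on the same strand inside it, and reads from the overlap can be assigned to either. That RNA had 105 and 84.3 CPM at the high dose of Polygalae Radix, against 18 and 23.6 CPM at the low dose. Adding its counts to IGF2 kept IGF2 called in all of these comparisons. The readthrough gene INS-IGF2 held at most 0.113 CPM. H19 (ENSG00000130600, chromosome 11, 1995176 to 2001470, minus strand) gave values on few counts. It had 1.1 and 1 CPM at the high dose of Polygalae Radix, against 0.589 and 0.586 CPM at the low dose. The groups did not overlap, but the log2 fold change of 0.83 missed the threshold (SE 0.38, adjusted p = 0.0529); with the GC trend removed it was 0.84 and passed. Between high and low dose no other extract gave a called change of H19, with log2 fold changes between -0.62 and 0.29 and standard errors of 0.34 to 0.5. At the medium dose of Guibi-tang H19 had 0.553, 0.625 and 0.712 CPM, against 0.492, 0.218 and 0.465 CPM at the low dose. That change was not called either.

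DLK1 (ENSG00000185559, chromosome 14, 100725705 to 100738224, plus strand) fell with 5 extracts, more than any other of the 8 genes. With Polygalae Radix it had 89.6 and 79.1 CPM at the high dose, against 218 and 226 CPM at the low dose (log2 fold change -1.41, SE 0.07, adjusted p = 1.82e-22). With Menthae Herba it had 129, 136 and 131 CPM, against 224, 235 and 214 CPM (log2 fold change -0.77, SE 0.06, adjusted p = 1.6e-15), and 3.56% of all genes were lower. The next were Aucklandiae Radix and Soyo-san. Aucklandiae Radix gave 159 and 157 CPM, against 236 and 230.1 CPM (log2 fold change -0.57, SE 0.07, adjusted p = 4.07e-10), and Soyo-san 166 and 166 CPM, against 224 and 237 CPM (log2 fold change -0.48, SE 0.07, adjusted p = 2.35e-06). A lower fold change was found for 26.7% of all genes with Aucklandiae Radix and for 7.01% with Soyo-san. Guibi-tang gave 187, 152 and 189 CPM, against 225, 205 and 213 CPM (log2 fold change -0.29, SE 0.05, adjusted p = 3.77e-05). In these 5 extracts no high-dose library reached a low-dose one. Unlike AFP and IGF2, DLK1 passed at no medium dose, where its log2 fold changes from the low dose lay between -0.15 and 0.05. In fits of the 2 groups alone it passed with Menthae Herba (-0.16, adjusted p = 0.0137), as did AFP (-0.11, adjusted p = 0.0323). Of 8 listed neighbours in the imprinted DLK1 to DIO3 region, WDR25 alone passed the filter on low counts, and MEG3, the maternally expressed noncoding RNA of that region, stayed at or below 0.131 CPM.

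The RNA-binding proteins and LIN28B changed with fewer extracts, and sites for let-7 are shown for them because LIN28B blocks this microRNA and its own mRNA is a known target. The mature let-7a-5p has its seed in capitals, and each site, GRCh38, is the 3′UTR stretch around the first seed match (CTACCTC) of the longest annotated 3′UTR, with the match in capitals.
let-7a-5p: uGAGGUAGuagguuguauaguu
IGF2BP1, chr17:49051061-49051083, plus strand: tgtgtgcgaagtaaaCTACCTCa
IGF2BP3, chr7:23311795-23311817, minus strand: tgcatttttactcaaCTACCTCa
LIN28B, chr6:105078812-105078834, plus strand: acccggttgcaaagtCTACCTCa
The 3′UTR of IGF2BP1 held 4 such matches, that of LIN28B 4 and that of IGF2BP3 1, while those of AFP, GPC3, IGF2 and DLK1 held 0. Of 19098 coding genes with a 3′UTR, 9.2% held at least 1. The microRNA sequence is from RefSeq, the sites are from GENCODE 29, and let-7 itself was not measured by these mRNA libraries.

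IGF2BP1 (ENSG00000159217, chromosome 17, 48997412 to 49055650, plus strand) fell to a like level at the high doses of Polygalae Radix and Aucklandiae Radix. It had 422 and 428 CPM at the high dose of Polygalae Radix, against 631 and 636 CPM at the low dose (log2 fold change -0.58, SE 0.04, adjusted p = 1.18e-16). Aucklandiae Radix gave 410.5 and 442 CPM, against 645 and 626 CPM (log2 fold change -0.58, SE 0.04, adjusted p = 9.32e-17). These 2 groups lay below all others. A lower fold change was found for 24.3% of all genes with Polygalae Radix and for 26.3% with Aucklandiae Radix. Menthae Herba gave a smaller change, with 574, 577 and 583 CPM against 649, 653 and 642 CPM (log2 fold change -0.17, SE 0.03, adjusted p = 0.000131). With Guibi-tang IGF2BP1 had a log2 fold change of 0.01 (SE 0.03, adjusted p = 0.911), beside falls of AFP and IGF2 past 2-fold.

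IGF2BP3 (ENSG00000136231, chromosome 7, 23310209 to 23470467, minus strand) was the steadiest of the coding members, between 69.9 and 107 CPM in all libraries. It fell with Polygalae Radix, at 69.9 and 71.2 CPM against 87 and 88.6 CPM (log2 fold change -0.32, SE 0.05, adjusted p = 1.27e-06). With Guibi-tang it had 92.9, 107 and 92.2 CPM at the high dose, against 85.8, 87.7 and 94.4 CPM at the low dose, and was called higher (log2 fold change 0.12, SE 0.04, adjusted p = 0.0265). The groups overlapped, and without high-dose replicate 2 the value was 0.05 and did not pass. The call was also lost with no filter on low counts (0.12, adjusted p = 0.122) and in a fit of the 2 groups alone (0.12, adjusted p = 0.2). It was lost too without low-dose replicate 1 (0.09, adjusted p = 0.158) or 2 (0.11, adjusted p = 0.0845).

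LIN28B (ENSG00000187772, chromosome 6, 104936616 to 105083332, plus strand) stood out for one extract. It had 73.2 and 73.8 CPM at the high dose of Aucklandiae Radix, against 159 and 152 CPM at the low dose (log2 fold change -1.09, SE 0.06, adjusted p = 3.46e-20), a level 2.13-fold lower. Every other library held at least 135 CPM, and 145 and 149 CPM were found at the medium dose of this extract. Against all genes of this comparison the fall was not extreme, since 13.3% had a lower fold change. With Polygalae Radix LIN28B had 159 and 191 CPM at the high dose, against 151 and 153 CPM at the low dose (log2 fold change 0.2, SE 0.06, adjusted p = 0.00385); without high-dose replicate 3 the value was 0.05 (adjusted p = 0.499). The other extracts gave no called change, with log2 fold changes from -0.1 to 0.08. With Guibi-tang, at -0.1, LIN28B was called with the GC trend removed (-0.11, adjusted p = 0.00268), without low-dose replicate 1 (-0.15, adjusted p = 0.0302) and without high-dose replicate 2 (-0.15, adjusted p = 0.0185).

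**Figure D3:**
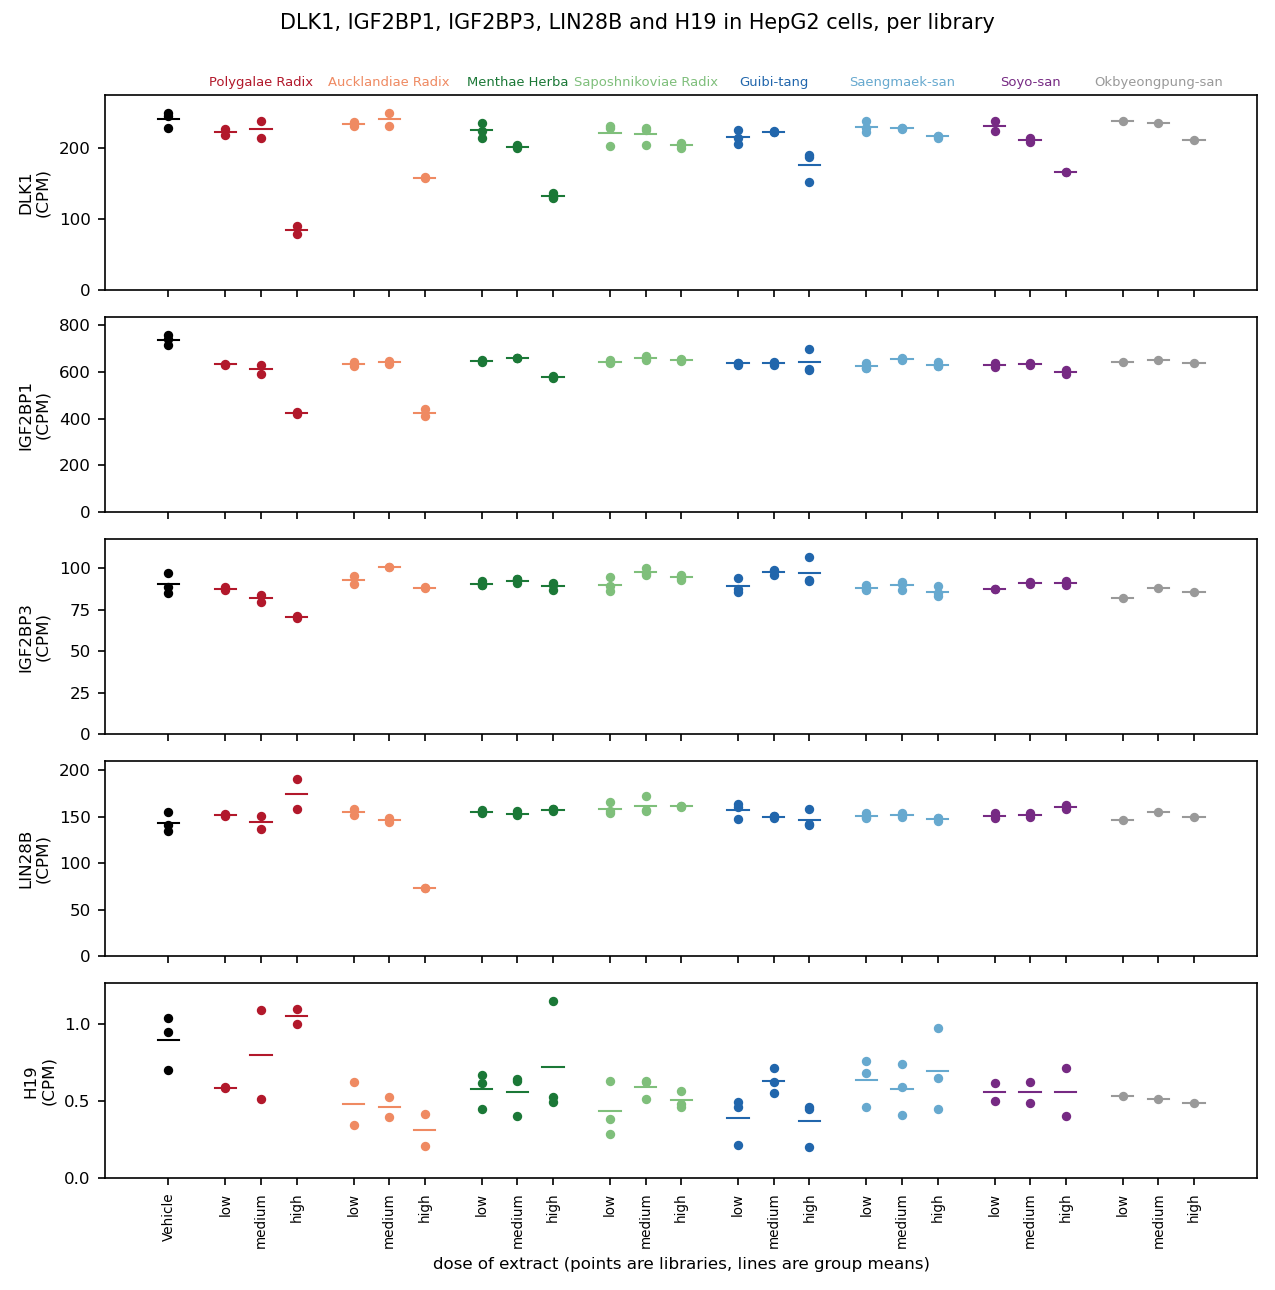
Levels of DLK1, IGF2BP1, IGF2BP3, LIN28B and H19 in CPM (linear axes from 0) in each of the 60 libraries, ordered with vehicle on the left and then the low, medium and high dose of each extract; points are libraries and short lines are group means. DLK1 is lowest at the high dose of Polygalae Radix, LIN28B at the high dose of Aucklandiae Radix with 73.2 and 73.8 CPM, and the H19 values rest on 5 to 30 counts a library.

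Both Menthae Herba with Saposhnikoviae Radix and Guibi-tang with Saengmaek-san shared a set label, doses and replicate numbers, and the difference between their dose responses was tested directly. AFP fell more with Menthae Herba than with Saposhnikoviae Radix, with a difference in log2 fold change of -0.53 (SE 0.07, adjusted p = 1.21e-07). The same difference was -0.5 for GPC3 (SE 0.06, adjusted p = 3.24e-09), -0.66 for DLK1 (SE 0.08, adjusted p = 1.29e-08) and -0.19 for IGF2BP1 (SE 0.05, adjusted p = 0.00483). These 4 of 8 genes passed, all lower, where 10.6% of all genes passed and 6.28% in that direction, and IGF2 did not (-0.22, SE 0.09, adjusted p = 0.121). With no filter on low counts IGF2BP1 did not pass (-0.16, adjusted p = 0.159) and IGF2 did (-0.19, adjusted p = 0.0478). AFP fell more with Guibi-tang than with Saengmaek-san, with a difference of -1.25 (SE 0.07, adjusted p = 1.15e-18), as did IGF2 at -1.01 (SE 0.09, adjusted p = 1.59e-12) and GPC3 at -0.25 (SE 0.06, adjusted p = 0.000624). These 3 of 8 passed, all lower, where 19.6% of all genes passed and 10.2% in that direction. DLK1 had a difference of -0.21 (SE 0.08, adjusted p = 0.0545) and IGF2BP3 one of 0.16 (SE 0.06, adjusted p = 0.0697).

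Summed hepatocyte markers moved with the same high doses. They summed to 16600 to 20100 CPM at the high dose of Polygalae Radix, against 44000 to 45200 CPM at the low dose, and to 18700 to 19300 CPM at the high dose of Aucklandiae Radix, against 44300 to 44600 CPM at the low dose. Menthae Herba gave 21000 to 24100 CPM, against 45400 to 47100 CPM, and Guibi-tang 33500 to 34800 CPM, against 44700 to 46700 CPM. Of the 9 markers, 7 fell and 1 rose with Polygalae Radix, 9 fell with Aucklandiae Radix, 6 with Menthae Herba, and 8 fell and 1 rose with Guibi-tang. Other library properties moved with these doses too. The mitochondrial share was 17.5% to 17.7% at the high dose of Polygalae Radix, against 12% to 12.9% at the low dose, and 8.02% to 8.17% at the high dose of Aucklandiae Radix, against 12.4% to 14% at the low dose. Lung and gut markers summed to 78.4 to 84.6 CPM at the high dose of Polygalae Radix, against 299 to 303 CPM at the low dose, and to 73.5 to 79.9 CPM at the high dose of Aucklandiae Radix, against 311 to 315 CPM at the low dose. Blood markers, nearly all LYZ, summed to 561 to 632 CPM at the high dose of Polygalae Radix, against 1230 to 1290 CPM at the low dose; with Aucklandiae Radix and Guibi-tang they were likewise lower at the high dose (653 to 681 against 1160 to 1190 CPM, and 611 to 708 against 1150 to 1210 CPM), and with Menthae Herba higher (1530 to 1580 against 1120 to 1300 CPM). In bulk RNA a smaller share of cells with a transcript and less of it per cell cannot be told apart, and the part of these markers and properties in the changes of the 8 genes was not tested.

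Low doses differed from vehicle in some of the same genes. Low-dose libraries received extract and carry another set label than vehicle, so an effect of the low dose and a set difference cannot be told apart. IGF2 was lower in the low dose of all 7 tested extracts, with log2 fold changes of -0.9 to -0.53, and GPC3 was higher in all 7 (0.25 to 0.33) and IGF2BP1 lower in all 7 (-0.24 to -0.18). Low-dose libraries of all 8 extracts held 1895 to 2756 CPM of IGF2, against 3729, 3548 and 3741 CPM in vehicle, and 1606 to 1765 CPM of GPC3, against 1353, 1363 and 1373 CPM in vehicle. No low-dose library reached a vehicle library for either gene. AFP was higher in 6 of 7 (0.17 to 0.37) and had a log2 fold change of 0 with Aucklandiae Radix. With Polygalae Radix AFP was not called in a fit of the 2 groups alone (0.15, adjusted p = 0.0656). Fits with a library of either group left out also lost the call, among them those without vehicle replicate 2 (0.15, adjusted p = 0.0506) or 3 (0.14, adjusted p = 0.0702). Without low-dose replicate 2 or 3 of Polygalae Radix the values were 0.18 and 0.16, in the order named. The number of the 8 genes that passed ran from 3 with Aucklandiae Radix, where 33.3% of all genes passed, to 7 with Guibi-tang, where 40.1% did; it was 6 with Saposhnikoviae Radix (37.6%), and 4 each with Polygalae Radix (36.1%), Menthae Herba (38%), Saengmaek-san (38.7%) and Soyo-san (34.2%). These 7 comparisons share the same 3 vehicle libraries, so they are not independent. With the GC trend removed, IGF2 (-0.74 to -0.35), GPC3 (0.23 to 0.3) and IGF2BP1 (-0.21 to -0.16) passed in all 7 with the same sign, while AFP ran from -0.18 to 0.17.

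**Figure D4:**
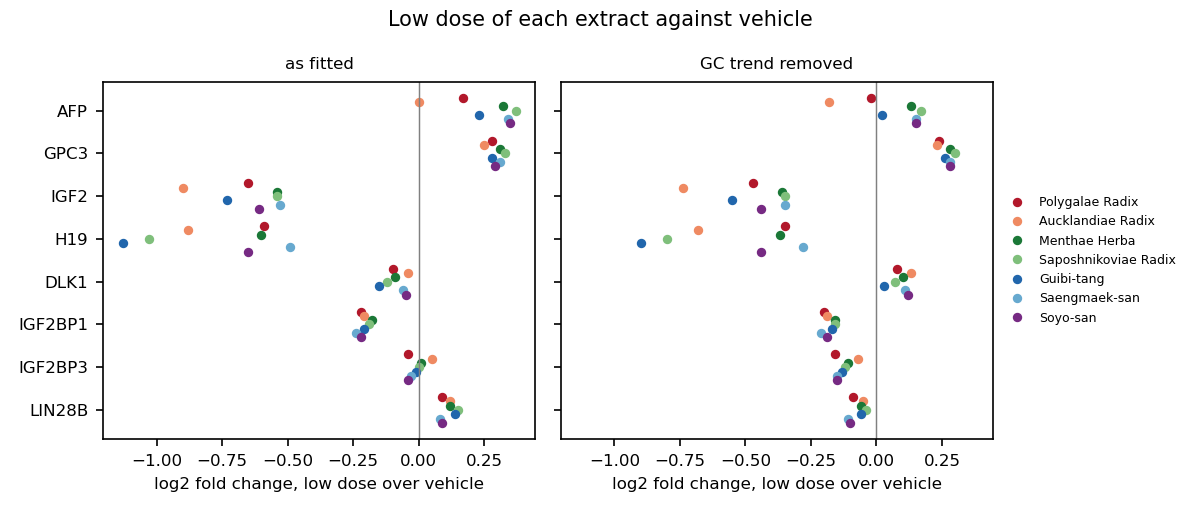
Log2 fold change of each gene, low dose of each of 7 extracts over vehicle, as fitted (left) and with the GC trend removed (right); points are extracts. IGF2 and IGF2BP1 lie below 0 and GPC3 above 0 in both panels, and AFP, DLK1, IGF2BP3 and LIN28B change sides with some extracts.

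High doses against vehicle carry both the change from low to high dose and the difference between low dose and vehicle. IGF2 was higher than vehicle with Polygalae Radix (log2 fold change 0.39, adjusted p = 3.12e-06) and lower with the other 6 extracts, down to -1.76 with Guibi-tang. GPC3 had group means below vehicle (1363 CPM) with Polygalae Radix (371 CPM) and Menthae Herba (1111 CPM). With Guibi-tang (1375 CPM) and Aucklandiae Radix (1389.8 CPM) its libraries overlapped those of vehicle, and with the remaining tested extracts they lay above vehicle. DLK1 and IGF2BP1 were lower than vehicle in all 7, with -1.51 to -0.14 and -0.8 to -0.17. With the GC trend removed DLK1 was not called with Saposhnikoviae Radix (-0.04, adjusted p = 0.521) or Saengmaek-san (0.04, adjusted p = 0.456), and with Saengmaek-san the call was also lost without vehicle replicate 2 or 3 or any of the high-dose libraries (adjusted p of 0.056 to 0.178). AFP was lower in the 4 extracts named above and higher in the other 3, which was also seen at their low doses. With the GC trend removed AFP was not called with Saposhnikoviae Radix (0.08, adjusted p = 0.121) or Soyo-san (-0.02, adjusted p = 0.786), and with Soyo-san it was also lost without high-dose replicate 2 (0.15, adjusted p = 0.11). The 8 genes passed in 5 to 7 cases per extract, beside 66.9% of all genes with Polygalae Radix, 73.3% with Aucklandiae Radix, 48.2% with Menthae Herba, 40.1% with Saposhnikoviae Radix, 40.5% with Saengmaek-san, 51% with Guibi-tang and 38.8% with Soyo-san.

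Genes around the 8 in their pathways were taken from lists and are given for high against low dose, as log2 fold changes. Their counts are to be read against the shares of all genes in the same direction, which were 31.1% higher and 33% lower with Polygalae Radix, 33.9% and 35.5% with Aucklandiae Radix, 10.8% and 12.5% with Menthae Herba, 16.8% and 17.5% with Guibi-tang, and 2.13% and 1.83% with Soyo-san. Of 14 tested genes of the IGF axis (receptors, substrates, binding proteins), 7 rose and 0 fell with Guibi-tang (median log2 fold change 0.28, beside 0 for all genes), beside the fall of IGF2. Among them IGF2R, which clears IGF2 from the cell surface, rose with a log2 fold change of 0.56 and IGFBP1, an IGF-binding protein secreted by liver, with 0.75. With Menthae Herba 5 rose and 4 fell, with IGFBP1 at 2.27, and with Soyo-san 2 rose, with IGFBP1 at 1.65. With Polygalae Radix 5 rose and 5 fell (IGFBP1 1.37, IGFBP7 -1.72), and with Aucklandiae Radix 6 rose and 4 fell, led by IRS2, an insulin receptor substrate, at 4.39. IRS2 stayed at or below 4.02 CPM in all libraries.

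Of 7 tested neighbours in the imprinted region of IGF2 on chromosome 11, PHLDA2, a maternally expressed growth restrainer of the placenta, rose with Polygalae Radix (2.95), Aucklandiae Radix (4.49), Menthae Herba (1.01), Guibi-tang (1.23) and Soyo-san (1.26). The counts were 3 higher and 2 lower with Polygalae Radix, 1 and 2 with Aucklandiae Radix, 2 and 1 with Menthae Herba, and 2 and 0 with both Guibi-tang and Soyo-san. IGF2-AS, the antisense RNA of IGF2, rose with Polygalae Radix (2.19), at 1.17 and 0.916 CPM at the high dose, against 0.344 and 0.153 CPM at the low dose. The library kit marks strand per the labels, but the strand setting of the counting is not given in the sources used here, so reads of IGF2 and IGF2-AS may not be fully separated. Of the wider network of imprinted growth genes, PEG10, a retrotransposon-derived gene often high in liver cancer, fell with Polygalae Radix (-1.26), Aucklandiae Radix (-1.76), Menthae Herba (-0.63), Guibi-tang (-1.08), Soyo-san (-0.43) and Saposhnikoviae Radix (-0.18). Over the network, 2 rose and 4 fell of 7 tested with Polygalae Radix, 4 and 3 with Aucklandiae Radix, 0 and 4 with Menthae Herba, and 2 and 4 with Guibi-tang.

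The list of the AFP locus and its regulators moved differently with the extracts that lowered AFP. Of 13 tested, 7 rose and 1 fell with Polygalae Radix (median 0.34), where the gene that fell was ALB, the adult neighbour of AFP in the same gene cluster, at -1.33, and the liver factors FOXA2 and FOXA3 rose by 0.6 and 0.87. With Aucklandiae Radix 2 rose and 9 fell (median -0.53), among them FOXA1 at -1.62 and ZHX2, a repressor of AFP in mouse liver, at -1.74. With Menthae Herba 0 rose and 4 fell, with ALB at -0.45 and CEBPA at -0.66, and with Guibi-tang 2 rose and 6 fell, with ALB at -0.59 and FOXA3 at -0.57. ALB was thus lower in each of the 4 extracts in which AFP was lower, with smaller log2 fold changes than AFP.

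Among 21 glypicans and heparan sulfate genes, 16 fell and 1 rose with Menthae Herba, where GPC3 fell by 0.6 on the log2 scale (list median -0.26). With Aucklandiae Radix 15 fell and 4 rose (median -0.56), with NOTUM, a secreted enzyme that removes a lipid from Wnt proteins, at -1.88, and SDC4, a syndecan, at 2.01. With Polygalae Radix 9 rose and 7 fell (median 0.19), with GPC6 at -1.09 and EXT1, an enzyme that builds heparan sulfate chains, at 0.85. With Guibi-tang 4 rose and 4 fell, with GPC6 at -0.47 and SDC4 at 0.62. The fall of GPC3 with Polygalae Radix thus stood beside a list in which more genes rose than fell.

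**Figure D5:**
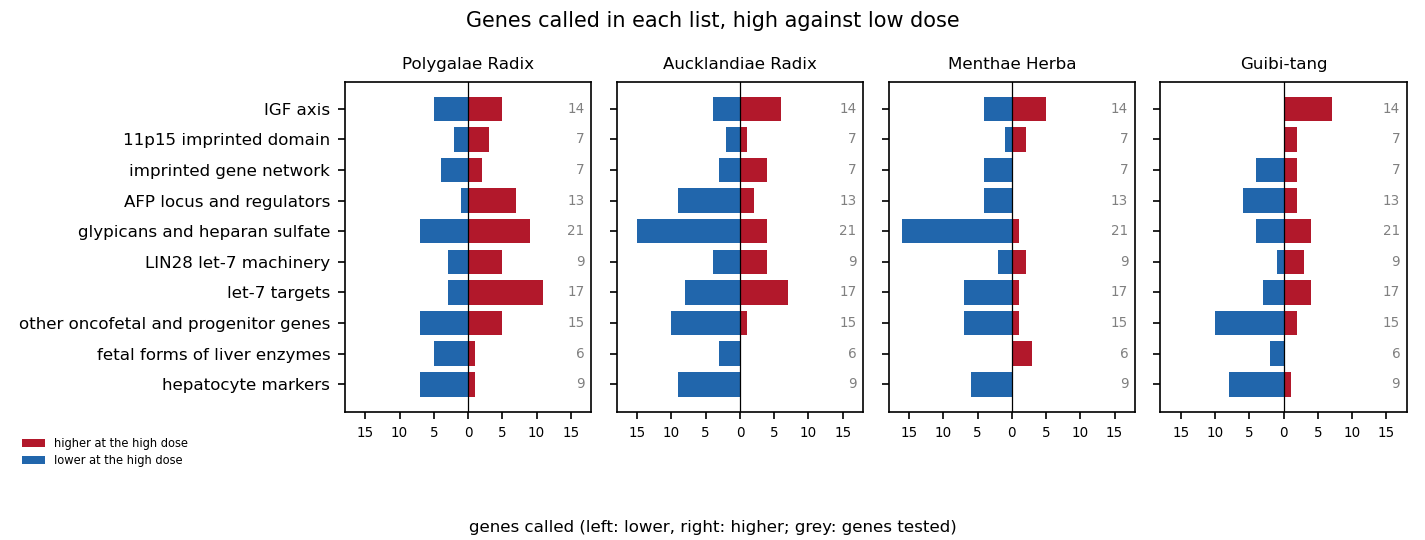
Number of genes called higher (right) and lower (left) at the high dose in each list, for the 4 extracts that changed most of the 8 oncofetal genes; grey numbers are the genes tested. With Menthae Herba 16 of 21 glypican and heparan sulfate genes are lower, and with Guibi-tang 7 of 14 IGF axis genes are higher and none lower.

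Of 9 tested genes of the LIN28 and let-7 machinery, 5 rose and 3 fell with Polygalae Radix, 4 and 4 with Aucklandiae Radix, 2 and 2 with Menthae Herba and 3 and 1 with Guibi-tang. AGO2, the Argonaute protein that carries microRNAs, rose with Polygalae Radix (1.5), Aucklandiae Radix (0.9), Guibi-tang (0.58), Menthae Herba (0.24) and Soyo-san (0.18). Of 17 let-7 targets, 11 rose and 3 fell with Polygalae Radix (median 0.29), and 7 rose and 8 fell with Aucklandiae Radix (median -0.05), where LIN28B was lowest. HMGA2, an oncofetal chromatin protein with let-7 sites, fell with Polygalae Radix (-0.8), Aucklandiae Radix (-2.23), Menthae Herba (-0.28), Guibi-tang (-0.48) and Soyo-san (-0.18). With Menthae Herba 1 target rose and 7 fell, and with Guibi-tang 4 rose and 3 fell.

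Of 15 other oncofetal and progenitor genes, 5 rose and 7 fell with Polygalae Radix, 1 and 10 with Aucklandiae Radix, 1 and 7 with Menthae Herba, 2 and 10 with Guibi-tang and 2 and 3 with Soyo-san. The Wnt antagonist DKK1 fell with Aucklandiae Radix (-1.77), Menthae Herba (-0.44), Guibi-tang (-0.93), Soyo-san (-0.37) and Saengmaek-san (-0.25). SPP1, or osteopontin, a secreted phosphoprotein raised in liver tumours, fell with Polygalae Radix (-1.73) and Aucklandiae Radix (-1.21) and rose with Soyo-san (0.69), Guibi-tang (0.48), Menthae Herba (0.32) and Saposhnikoviae Radix (0.32). Of the 6 fetal enzyme forms of glycolysis and drug metabolism, 5 fell and 1 rose with Polygalae Radix (median -1.82), with the pyruvate kinase PKM at -2 and the aldolase ALDOA at -1.86. Menthae Herba had 3 of these 6 higher and 0 lower, with PKM at 0.5 and ALDOA at 0.66, beside falls of AFP, GPC3 and DLK1. Of 4 tested adult forms, 0 rose and 2 fell with each of 4 extracts, namely ALB and the liver pyruvate kinase PKLR, which had -2.86 with Polygalae Radix, -2.22 with Aucklandiae Radix, -0.39 with Menthae Herba and -0.22 with Guibi-tang.

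The genes whose group means were most like those of AFP over the 25 groups, among 10533 genes with a mean of at least 5 CPM, were FGB (Pearson r = 0.98, Spearman rho = 0.9), GLUD1 (r = 0.96, rho = 0.86) and ALB (r = 0.96, rho = 0.97), and the least like were RFLNB (r = -0.97, rho = -0.82), ANKRD13B (r = -0.94, rho = -0.82) and TSPAN17 (r = -0.94, rho = -0.84). FGB and ALB encode plasma proteins, fibrinogen beta and albumin. For GPC3 the most like were PDIA6 (r = 0.99, rho = 0.58), TMEM169 (r = 0.98, rho = 0.75) and DDOST (r = 0.98, rho = 0.63), and the least like SOX4 and RHOB (r = -0.97 and rho = -0.57 each) and PRAG1 (r = -0.96, rho = -0.65). PDIA6 and DDOST act on proteins folded and glycosylated in the endoplasmic reticulum. For IGF2 the most like were PYGO2 (r = 0.93, rho = 0.79) and H1-10 (r = 0.93, rho = 0.8), and the least like BBS7 (r = -0.94, rho = -0.78), VAPA (r = -0.92, rho = -0.65) and AKR1C1 (r = -0.91, rho = -0.78). Between the 8 genes themselves, group means of GPC3 and DLK1 correlated at r = 0.88, AFP and GPC3 at r = 0.81, and AFP and IGF2 at r = 0.12. The doses of an extract are related groups. By group mean the high dose of Polygalae Radix is lowest for GPC3 (371 CPM, next 1111 CPM) and AFP (929.9 CPM, next 1482 CPM). For IGF2 it is highest (4807 CPM, next 3673 CPM in vehicle). These correlations are therefore descriptions.

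Okbyeongpung-san, a decoction with 1 library a dose, left the 8 genes near their low-dose level, and of 10800 genes 0.12% differed past 2-fold between its high and low dose, 0.102% between its medium and low dose, 0.417% between its high dose and vehicle and 0.315% between its low dose and vehicle. DLK1 had 210 CPM at the high dose and 237 CPM at the low dose, a log2 difference of -0.18 (95% counting interval -0.23 to -0.12). GPC3 had 1613 CPM at the high dose and 1666 CPM at the low dose (log2 difference -0.05, interval -0.07 to -0.03). IGF2 had 2257 and 2281 CPM (log2 difference -0.02), below the 3 vehicle libraries as at the low doses of the other extracts. With 1 library a dose this decoction was left out of the fit and not tested, and the intervals cover counting error only.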

How the data were processed

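RNA of HepG2 cultures was sequenced as 100 bp paired-end reads from a strand-specific kit, per the labels' protocols. Per the submitters' processing notes, reads were handled with FastQC 0.11.9, Trim Galore 0.6.5, STAR 2.7.3a and RSEM 1.3.3 on GRCh38; of the annotation, neither its release nor how strand was used in counting is given in the sources used here. The deposited values are expected counts per gene for 60 libraries; 10.0% of the values were not whole, and all were rounded here. Gene symbols, lengths and GC content came from GENCODE 29, which holds 57055 of the 60675 gene IDs.

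Counts were scaled by TMM and tested with edgeR 4.0.16 (R 4.3.3), a quasi-likelihood fit of 57 libraries in 22 groups with 35 residual degrees of freedom; 16982 genes passed filterByExpr with a minimum count of 10. P-values were adjusted over all tested genes of a comparison (Benjamini-Hochberg, threshold 0.05). CPM are TMM-scaled, and log2 CPM used a prior count of 2. Okbyeongpung-san, with 1 library a dose, stayed out of the fit. The typical variation between replicates was 4.7%. Simulated data (16230 genes) used gene means over all fitted libraries, the same dispersion for every gene, and few genes changed in the high dose of Guibi-tang. Between its high and low dose, 87.8% of genes with a log2 fold change of -1, 46% of those with -0.322 and 0.0561% of unchanged genes were called. The deposited libraries had far more genes called and an uneven spread of replicates, so these rates may not carry over.

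The 8 genes and all lists were chosen with earlier results of these data known, and a list is described by its counts and median. Beyond the 8 genes, up to 3 called genes with the largest change were named per list and comparison, with their values in other extracts where they passed; MEG3 and ENSG00000240801 were added after their values were seen. Genes were ranked for likeness to AFP, GPC3 and IGF2 over 25 groups; a few genes that these rules name are not reported here. No pair of replicates was a duplicate: the chi-square per gene between replicates was 1.79 or more, where sampling noise alone gives about 1. Replicate numbers are in the titles. With 3 pairs, same-numbered libraries deviated together (every pair over 0.1) for Saposhnikoviae Radix between medium and low dose (correlations of 0.2 to 0.45) and between low dose and vehicle (0.12 to 0.2), and the replicate block changed no call of the 8 genes there. Alternatives were RLE scaling, 2 other filters, DESeq2 1.42.0, a GC correction, a replicate block, fits of the 2 groups alone, pooled low doses as reference, overlapping genes added to IGF2, and each library left out.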

Additional observations from a re-analysis of the deposited data

Results flagged for a closer look

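In the pair of herbs given at the same doses in one set, the dose response of 4 genes differed between Menthae Herba and Saposhnikoviae Radix by a test of the difference. The log2 fold change of Menthae Herba minus that of Saposhnikoviae Radix was -0.53 for AFP, -0.5 for GPC3, -0.66 for DLK1 and -0.19 for IGF2BP1; the value for IGF2BP1 was -0.16 and did not pass with no filter on low counts (adjusted p = 0.159). In the pair of decoctions given at the same doses in one set, Guibi-tang minus Saengmaek-san was -1.25 for AFP, -0.25 for GPC3 and -1.01 for IGF2, also by a test of the difference. The high doses of Menthae Herba and Guibi-tang were also those with lower summed hepatocyte markers, whose part in these differences was not tested.

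For Polygalae Radix and Aucklandiae Radix, which share a set label but not their doses, IGF2 and LIN28B moved in opposite directions in every library. The log2 fold change of Polygalae Radix minus that of Aucklandiae Radix was 1.62 for IGF2 and 1.29 for LIN28B. The difference itself was not tested, and for LIN28B the rise with Polygalae Radix was 0.05 without high-dose replicate 3.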

How the results depend on the processing

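Over 3126 values of the 8 genes under an alternative, 2979 kept their side of the threshold without a called change of sign. Of the others, 71 lost a call, 46 gained one and 30 changed sign where either value was called. The 2979 include 124 in which the sign changed where neither value passed. Between high and low dose, AFP with Polygalae Radix ran from -1.97 to -1.75, GPC3 with Polygalae Radix from -2.24 to -2.03, IGF2 with Polygalae Radix from 0.93 to 1.13, AFP with Guibi-tang from -1.29 to -1.16, IGF2 with Guibi-tang from -1.08 to -0.96 and LIN28B with Aucklandiae Radix from -1.13 to -1.03, all of them called throughout. The replicate block turned H19 with Polygalae Radix into a call (0.85), likewise H19 at the low dose of Aucklandiae Radix against vehicle (-0.95), and changed no other call of the 8 genes; with this block 10884 genes passed between high and low dose of Polygalae Radix, 11808 with Aucklandiae Radix, 4011 with Menthae Herba, 167 with Saposhnikoviae Radix, 83 with Saengmaek-san, 5835 with Guibi-tang and 704 with Soyo-san. With 2 pairs, correlations of same-numbered libraries ran from -0.37 to 0.43, and such numbers were taken to share only a number. The sum of IGF2 and ENSG00000240801, chosen after seeing the data, kept every IGF2 call.

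With the GC trend removed, low doses against vehicle changed sign for AFP (Polygalae Radix -0.02, Aucklandiae Radix -0.18), DLK1 (Aucklandiae Radix 0.13, Saengmaek-san 0.11, Guibi-tang 0.03, Soyo-san 0.12), IGF2BP3 (Menthae Herba -0.11, Saposhnikoviae Radix -0.12) and LIN28B (Polygalae Radix -0.09, Saposhnikoviae Radix -0.04, Saengmaek-san -0.11, Guibi-tang -0.06, Soyo-san -0.1). High doses against vehicle did so for LIN28B (Menthae Herba -0.04, Saposhnikoviae Radix -0.02, Saengmaek-san -0.14, Guibi-tang -0.17, Soyo-san -0.03), DLK1 with Saengmaek-san (0.04), IGF2BP3 with Guibi-tang (-0.01) and AFP with Soyo-san (-0.02). With pooled low doses in place of vehicle, high doses changed sign for GPC3 (Aucklandiae Radix -0.26, Saposhnikoviae Radix -0.07, Guibi-tang -0.28, Soyo-san -0.12), IGF2 (Saposhnikoviae Radix 0.11, Saengmaek-san 0.1), IGF2BP1 (Saposhnikoviae Radix 0.04, Guibi-tang 0.01) and AFP with Soyo-san (-0.07). The number of genes passing then was 503 for Saposhnikoviae Radix (6811 against vehicle), 165 for Saengmaek-san (6872) and 1521 for Soyo-san (6592), and of the 8 genes 1, 0 and 3 passed (6, 5 and 6 against vehicle). With the GC trend removed, 5 of the 8 passed at the low dose of Aucklandiae Radix against vehicle (3), 7 with Saengmaek-san (4), 7 with Soyo-san (4), and 3 at the high dose of Saposhnikoviae Radix (6). The cause was not tested.

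Genes passing between medium and low dose were 1429 with Polygalae Radix, but 20 with the 2 groups alone and 361 to 3005 with a library left out; 739 with Aucklandiae Radix, but 1146 with the GC trend removed, 1193 with the 2 groups alone and 323 to 385 with a library left out; and 611 with Guibi-tang, but 1084 with the GC trend removed and 305 to 466 with a library left out. Menthae Herba had 20, but 127 with no filter, 60 with the GC trend removed, 231 with the 2 groups alone, 47 with DESeq2 and 6 to 16 with a library left out. Saposhnikoviae Radix had 2, with 92 under no filter, 1 with the 2 groups alone and 1 to 2 with a library left out. Saengmaek-san had 0, with 126, 1 (replicate block), 2 (GC trend removed), 3 (2 groups alone), 2 (DESeq2) and 0 to 2; Soyo-san had 1, with 83 under no filter, 7 with the 2 groups alone and 1 to 2 with a library left out. In fits of the 2 groups alone, 0 of the 8 genes passed at the medium dose of Polygalae Radix (3) and 2 at that of Menthae Herba (0). Between high and low dose, Saposhnikoviae Radix had 141 genes, with 250 under no filter, 342 with the GC trend removed, 389 with the 2 groups alone and 57 to 102 with a library left out; Saengmaek-san had 74, with 253, 165, 113 and 47 to 70; Soyo-san had 671, with 323 to 419 and 1 to 2 of the 8 genes when a library was left out. Leaving out a library gave 3643 to 6012 genes for the low dose of Soyo-san against vehicle (5805), 4 to 7 of the 8 genes for that of Guibi-tang (7), and 3 to 5 for Guibi-tang minus Saengmaek-san (3). H19, with at most 30 counts a library, is the gene whose changes this depth resolves least.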
